A study of Sus scrofa with 12 samples.

Results

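Immediate early genes are switched on within minutes of a signal, without new protein synthesis. Most code for transcription factors that then act on slower genes, and their messages are short-lived. In the ovary they are best known from the response of granulosa and luteal cells to gonadotropins and prostaglandins. FOS and JUN proteins pair into the AP-1 factor through a leucine zipper, EGR1 is a zinc finger factor, and the NR4A proteins are orphan nuclear receptors. DUSP1 removes phosphate from MAP kinases and so closes the loop on the signal that induces it.

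The 10 genes described here, FOS, FOSB, JUN, JUNB, EGR1, NR4A1, NR4A2, ATF3, DUSP1 and IER2, were chosen by name. Each was found as exactly 1 row among the 29884 genes of the table. Left ovaries of commercial sows were taken 4 days after delivery number 4, from 3 sows with small litters (small litter size, SLS, 8.48 ± 0.53 piglets per litter) and from 3 sows with large litters (large litter size, LLS, 16.19 ± 0.43 piglets per litter). The labels do not say which error follows the ± sign, the study's statistical methods give SEM as its general form, and the labels name no breed, treatment or transgene. The SLS ovaries are ZD2, ZD3 and ZD12 and the LLS ovaries are ZD5, ZD7 and ZD8, with 1 gene library per ovary after removal of ribosomal RNA. Levels are given as FPKM, reads scaled to transcript length and library depth. The question asked was whether the 10 genes differ between sows of small and large litters, and how they vary from ovary to ovary. An ovary is a mixture of cell types, so that fewer cells of a type and less RNA per cell cannot be told apart.

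The read totals implied by the FPKM values lay between 32272803 and 60903268 per library, lowest in the LLS ovary ZD8. ZD8 also stood apart in its cell type markers. All 6 luteal markers (STAR, CYP11A1, HSD3B1, SCARB1, LHCGR and PTGFR, made by the steroid-producing cells of the corpus luteum) were lowest in ZD8, with a summed level of 123 FPKM against 10859 to 12191 FPKM in the other LLS ovaries and 9167 to 10808 FPKM in the SLS ovaries. All 8 oocyte markers were highest in ZD8, with a sum of 129 FPKM against 8.50 to 12.1 FPKM in the other LLS ovaries and 6.49 to 22.4 FPKM in SLS, where 22.4 FPKM belonged to ZD12. Of these oocyte markers, 3 were listed at 0 in at least 1 ovary. The aromatase gene CYP19A1, which defines estrogen-producing granulosa cells, was between 0 and 0.01 FPKM in all 6 ovaries. The comparisons of the tested members, and the counts of list genes with an unadjusted p under 0.05, are therefore given with and without ZD8.

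The annotation places the 10 genes on 7 chromosomes of Sscrofa11.1. FOS lies on the plus strand of chromosome 7 from 98449508 to 98451971, with 4 exons. EGR1 (140440829 to 140445302, plus strand), JUNB (66214086 to 66219435, minus strand) and IER2 (65909638 to 65912491, minus strand) share chromosome 2. JUN (153686425 to 153687635) and FOSB (51836780 to 51844531) are both on the plus strand of chromosome 6. DUSP1 is on chromosome 16 (51457924 to 51461095, plus strand), ATF3 on chromosome 9 (130772259 to 130829678, minus strand), NR4A2 on chromosome 15 (63487051 to 63506249, minus strand) and NR4A1 on chromosome 5 (17403088 to 17407918, plus strand). The genes are compact, as 8 of the 10 span between 1211 and 7752 bases, where the median over 19529 protein-coding genes is 20671 bases. NR4A2 spans 19199 bases and ATF3 57420 bases.

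The models behind the FPKM values are uneven. The FOS model of 1143 bases is coding sequence alone, and the JUN model of 1211 bases has only 203 bases outside the coding part. JUNB is annotated as 1 exon of 5350 bases, of which 1044 are coding. NR4A1 is recorded as a pseudogene with no exons, and its value was scaled to the whole span of 4831 bases. A level of 1 gene set beside that of another is thus a level per annotated base.

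Immediate early genes answer signals through short elements in front of the gene. The CArG box binds serum response factor, and the cyclic AMP response element (CRE) binds CREB and its relatives. The 500 bases before each annotated start were searched on both strands for the CArG box, for the CRE TGACGTCA, for the AP-1 element TGANTCA and for the TATA box TATAAA. The matches in FOS, IER2 and DUSP1 are printed because FOS and DUSP1 varied widely between ovaries and IER2 little, as described further on. Each line runs 5′ to 3′ along the strand of the gene, with the match in capitals and up to 10 bases on each side.
FOS, CArG box, 7:98449042-98449071, plus strand: cacaggatgtCCATATTAGGacatctgcgt
FOS, TATA box, 7:98449324-98449349, plus strand: aaaatgctgtTATAAAagcagtggcc
IER2, CArG box, 2:65912681-65912710, minus strand: gggttcctgtCCTTATATGGgcagccggaa
DUSP1, CRE, 16:51457862-51457889, plus strand: gcagggcgggTGACGTCAccacaccggt
The FOS box begins 456 bases before the annotated start, which in this model is the start of the coding sequence, and the IER2 box begins 209 bases before its start. The CRE of DUSP1 begins 52 bases before its start. A CArG box was found for 2 of the 10 genes, beside 2.74% of 19523 windows of protein-coding genes. The CRE was found for 1 of the 10 beside 2.03%, TATAAA for 4 of the 10 beside 20.5%, and TGANTCA for 0 of the 10 beside 10.9%. The windows of JUN, JUNB, EGR1 and NR4A1 held none of these letters. A match is a description of the letters in this window and does not show that a factor binds there.

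The 10 genes covered a wide span of levels per annotated base. DUSP1 had the highest level, with a mean of 144 ± 92.0 FPKM (SD, n = 6 ovaries), followed by FOS with 98.6 ± 76.8 FPKM and EGR1 with 70.7 ± 40.2 FPKM. JUNB had 38.7 ± 21.9 FPKM, JUN 32.5 ± 18.2 FPKM, NR4A1 16.2 ± 7.43 FPKM and IER2 16.1 ± 2.78 FPKM. ATF3 (3.65 ± 0.853 FPKM), NR4A2 (1.20 ± 0.585 FPKM) and FOSB (0.641 ± 0.440 FPKM) were the scarcest, in that order in all 6 ovaries. DUSP1 exceeded FOS in all 6 ovaries as well, whereas NR4A1 and IER2 traded places, with NR4A1 higher in 3 of 6. FOS exceeded EGR1 in 5 of 6 and EGR1 exceeded JUNB in 5 of 6. JUNB exceeded JUN in 4 of 6, and JUN exceeded NR4A1 in 4 of 6. Between 48 and 213 reads lay behind each FOSB value and between 179 and 338 behind each NR4A2 value, while FOS rested on 475 to 13979 reads and DUSP1 on 2031 to 30654. JUNB rested on 1056 to 19738 reads, more than FOS in every ovary, over a model of 5350 bases against 1143 for FOS. The order of the genes is therefore one of levels per annotated base and not of read numbers.

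**Figure D1:**
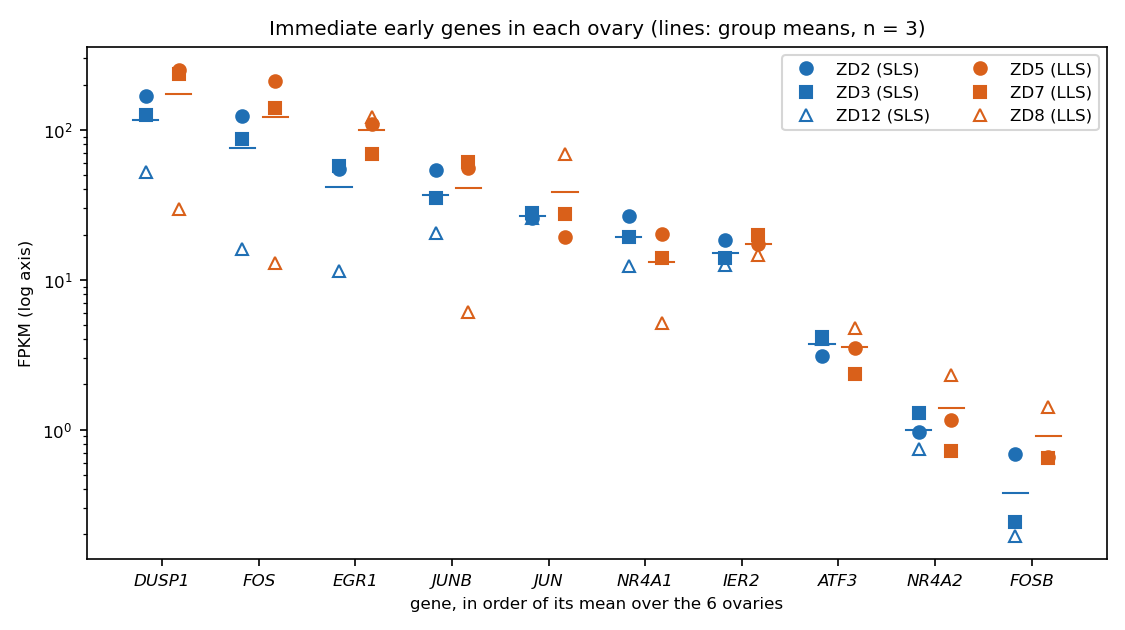
FPKM on a log axis for the 10 genes in each of the 6 ovaries, with SLS in blue and LLS in orange and short lines at the group means (n = 3). The open triangles of ZD12 and ZD8 lie below the other ovaries of their groups for FOS, DUSP1, JUNB and NR4A1, while ZD8 is the highest ovary for EGR1, JUN, ATF3, NR4A2 and FOSB.

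EGR1 was the single gene of the 10 whose groups did not overlap. Its levels were 54.9 FPKM in ZD2, 57.5 in ZD3 and 11.4 in ZD12 (SLS), and 109 in ZD5, 68.6 in ZD7 and 122 in ZD8 (LLS). Every LLS ovary was above every SLS ovary, and ZD12 was far below the rest. The mean was 41.3 ± 25.9 FPKM in SLS and 100.05 ± 28.0 FPKM in LLS (SD, n = 3 each), a ratio of 2.43. On the scale of log2(FPKM + 1), LLS exceeded SLS by 1.52 with a standard error of 0.60. Over 12260 genes limma gave an unadjusted p of 0.034 and an adjusted p of 0.999, so that EGR1 did not pass the test. An exact two-sided permutation test gave p = 0.1, the smallest that 3 ovaries against 3 allow. Of all tested genes, 1.95% were higher in LLS without overlap and 5.12% did not overlap in either direction. The difference in EGR1 was positive in all 16 alternative fits, from 0.78 to 1.90, with unadjusted p between 0.006 and 0.096 and adjusted p between 0.238 and 1 by limma. The lowest value, 0.78, was the fit without ZD12, and without ZD8 the difference was 1.35 (standard error 0.59, adjusted p = 0.821 by limma).

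No gene of the 10 passed the thresholds of adjusted p under 0.05 and absolute log2 fold change over 1, nor did any of the 12260 tested genes (0% called by limma). FOSB stayed under the filter of 1 FPKM in 3 ovaries, so that 9 of the 10 were tested. EGR1 was the 1 of the 9 with an unadjusted p under 0.05, beside 1.76% of all tested genes. The median log2 fold change was 0.22 over the 9 genes and 0.02 over all tested genes, with 6 of the 9 above 0 and 3 below. Without ZD8 these medians were 0.30 and -0.10, with 5 of the 9 above 0 and 4 below.

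FOS, the partner of JUN proteins in AP-1, differed more between ovaries of 1 group than between groups. FOS stood at 123 FPKM in ZD2, 87.5 in ZD3 and 16.1 in ZD12, all SLS. Among LLS it stood at 212 FPKM in ZD5, 140 in ZD7 and 12.9 in ZD8. ZD5 and ZD7 were above every SLS ovary and ZD8 was below every other ovary, so that the groups overlapped. The means were 75.6 ± 54.5 FPKM in SLS and 122 ± 101 FPKM in LLS (SD, n = 3 each), and limma put the log2 fold change at 0.38 (SE 1.08, adjusted p = 0.999), where the exact permutation test gave p = 0.7. Without ZD8 it was 1.60 (SE 0.69, unadjusted p = 0.043, adjusted p = 0.803 by limma). It turned to -0.49 without ZD12, to -0.38 without ZD5 and to -0.074 without ZD7.

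DUSP1 and JUNB followed the same order of ovaries at the low end. DUSP1 was at 169, 126 and 52.4 FPKM in ZD2, ZD3 and ZD12 and at 250, 237 and 29.7 FPKM in ZD5, ZD7 and ZD8. JUNB, an AP-1 subunit that pairs with FOS, was at 54.3, 35.2 and 20.5 FPKM in ZD2, ZD3 and ZD12 and at 55.2, 60.6 and 6.12 FPKM in ZD5, ZD7 and ZD8. For both genes ZD8 was lowest, ZD12 came next, and ZD5 and ZD7 were above every SLS ovary, for JUNB by a small margin over ZD2. The log2 fold change of DUSP1 was 0.22 (standard error 0.83) and that of JUNB -0.27 (standard error 0.80), both at an adjusted p of 0.999 by limma. Without ZD8 they were 1.22 (standard error 0.44, unadjusted p = 0.019, adjusted p = 0.596 by limma) and 0.75 (standard error 0.36, unadjusted p = 0.066, adjusted p = 0.916 by limma). DUSP1 turned to -0.27 without ZD12, -0.30 without ZD5 and -0.26 without ZD7, and JUNB to 0.060 without ZD2. FOS, JUNB, EGR1 and DUSP1 were thus the 4 of 9 genes for which both ZD5 and ZD7 lay above all SLS ovaries, which held for 7.44% of all tested genes. Without ZD8, FOS, EGR1 and DUSP1 (3 of 9) had an unadjusted p under 0.05, beside 5.88% of all tested genes. All 3 were higher in LLS, as were 3.14% of tested genes. None of the 9 was called without ZD8, where 0.171% of all tested genes were. Markers of other cell types moved in the same fit. All 5 smooth muscle markers were lower in LLS with an unadjusted p under 0.05 (median log2 fold change -1.21), with summed levels of 646 to 1796 FPKM in SLS and 314 and 668 FPKM in ZD5 and ZD7. Of 4 tested epithelial markers, 3 had an unadjusted p under 0.05, namely KRT8 (-1.88) and KRT19 (-2.05) lower in LLS and EPCAM (3.47) higher and called. In that fit 2 of 6 luteal, 2 of 6 granulosa and 1 of 6 fibroblast markers tested also had an unadjusted p under 0.05 by limma. Their median log2 fold changes were 0.18, 0.32 and -0.33. Among tested theca, oocyte, endothelial, macrophage, T cell and red blood cell markers the count was 0. The part of all these markers in the levels of FOS, EGR1 and DUSP1 was not tested. With limma's array weights, which count a deviating ovary less, the same 3 of 9 had an unadjusted p under 0.05, beside 10.2% of all tested genes.

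**Figure D2:**
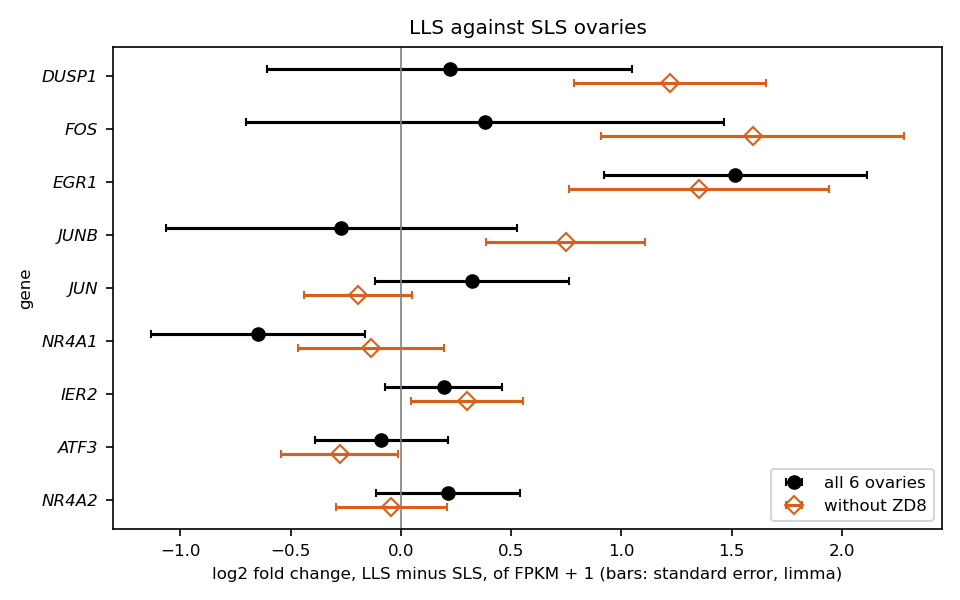
Log2 fold change of FPKM + 1, LLS minus SLS, with its standard error by limma for the 9 tested genes, with all 6 ovaries (black) and without ZD8 (orange). EGR1 stays at 1.52 and 1.35, while FOS moves from 0.38 to 1.60, DUSP1 from 0.22 to 1.22 and JUNB from -0.27 to 0.75.

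NR4A1, an orphan receptor induced by luteinizing hormone in ovarian cells, was the member highest in an SLS ovary. It was at 26.5, 19.4 and 12.3 FPKM in ZD2, ZD3 and ZD12 and at 20.2, 13.9 and 5.12 FPKM in ZD5, ZD7 and ZD8. ZD2 was the highest ovary and ZD8 the lowest, with ZD5 and ZD7 inside the SLS range. By limma, LLS minus SLS came to -0.65 on the log2 scale (SE 0.49, adjusted p = 0.999) and stayed below 0 in all 16 alternative fits, from -1.03 to -0.071. Most of its size came with ZD8, without which it was -0.14 (SE 0.33, unadjusted p = 0.690).

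JUN, the AP-1 subunit that binds DNA with FOS, went the other way in ZD8. It was nearly level in SLS, at 25.7, 27.9 and 25.8 FPKM in ZD2, ZD3 and ZD12. The LLS ovaries ZD5, ZD7 and ZD8 held 19.3, 27.3 and 69.2 FPKM. ZD8 was the highest ovary and ZD5 the lowest, and the other LLS ovary, ZD7, lay inside the SLS range. Its log2 fold change of 0.32 (SE 0.44 and adjusted p = 0.999 by limma) turned to -0.20 without ZD8.

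NR4A2, the second NR4A receptor, was low throughout, at 0.961, 1.29 and 0.742 FPKM in SLS (ZD2, ZD3, ZD12) and 1.16, 0.720 and 2.30 FPKM in LLS (ZD5, ZD7, ZD8). FOSB held 0.686, 0.242 and 0.195 FPKM in SLS and 0.655, 0.647 and 1.42 FPKM in LLS in the same order of ovaries. Both were highest in ZD8 and the groups overlapped. NR4A2 had a log2 fold change of 0.22 (standard error 0.33, adjusted p = 0.999 by limma), which turned to -0.043 without ZD8, and FOSB one of 0.47 (standard error 0.23, adjusted p = 0.993 by limma) in a fit with no filter.

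ATF3, a stress-induced relative of the AP-1 factors, and IER2, a nuclear protein of the early response, differed least over the 6 ovaries. ATF3 ranged from 2.36 FPKM in ZD7 to 4.77 FPKM in ZD8, both in LLS, with 3.08 to 4.15 FPKM in SLS. IER2 ranged from 12.6 FPKM in ZD12 to 19.8 FPKM in ZD7. The highest ovary was 2.02 times the lowest for ATF3 and 1.57 times for IER2. Their log2 fold changes were -0.09 (standard error 0.30) and 0.19 (standard error 0.27), both at an adjusted p of 0.999 by limma. Without ZD8 they were -0.28 (SE 0.26) for ATF3 and 0.30 (SE 0.25) for IER2.

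The spread between ovaries fell into unlike sizes, also among the 5 ovaries other than ZD8. The range of log2(FPKM + 1) over these 5 was 3.64 for FOS, 3.16 for EGR1, 2.23 for DUSP1 and 1.52 for JUNB, against a median of 0.72 over all tested genes. Only 0.220% of tested genes had a larger range than FOS, 0.359% a larger range than EGR1, 1.62% than DUSP1 and 6.08% than JUNB. NR4A1 had a range of 1.05, and the other tested members lay below the median of all genes, with 0.51 for JUN, 0.62 for ATF3, 0.61 for IER2 and 0.41 for NR4A2. As FPKM, the highest of the 5 was 13.2 times the lowest for FOS, 9.60 times for EGR1 and 4.77 times for DUSP1. It was 2.95 times for JUNB, 2.16 for NR4A1, 1.45 for JUN, 1.76 for ATF3, 1.57 for IER2 and 1.80 for NR4A2. The log2(FPKM + 1) scale understates changes of low genes such as NR4A2. FOSB, which was not tested, differed 3.51 times among the 5, at 0.195 to 0.686 FPKM. These shares describe the members among the tested genes, and no test was made of them.

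**Figure D3:**
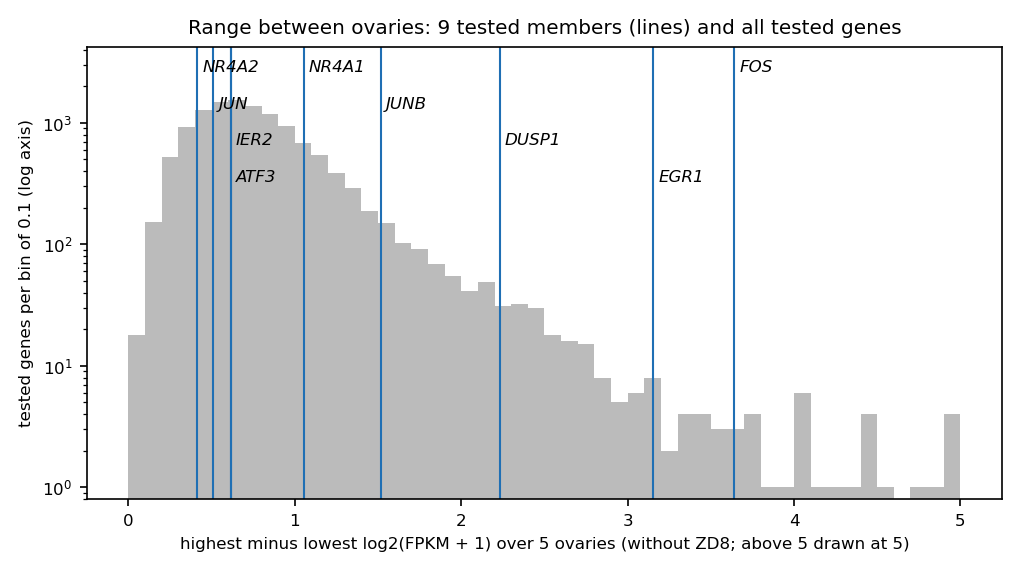
Number of tested genes (log axis) by the range of log2(FPKM + 1) over the 5 ovaries other than ZD8, with lines at the 9 tested immediate early genes. FOS (3.64), EGR1 (3.16) and DUSP1 (2.23) lie in the right tail, and JUN, ATF3, IER2 and NR4A2 lie below the median of 0.72.

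The low end of that range was mostly the SLS ovary ZD12. Among the 5 ovaries other than ZD8, ZD12 was lowest for 7 of the 10 genes (FOS, FOSB, JUNB, EGR1, NR4A1, DUSP1 and IER2) and highest for 0 of them. Over the 9 that were tested the count of lowest places was 6 (66.7%), beside 8.61% of all tested genes, and ZD12 was highest for 4858 of all 12260 tested genes. ZD12 was lowest of the 5 for 12 of the 33 other immediate early genes tested. It was so for 2 of the 11 other AP-1, EGR and NR4A genes and for 4 of the 9 other DUSP phosphatases. Among the 5, the summed oocyte markers of 22.4 FPKM and theca markers of 85.7 FPKM were highest in ZD12 too, where the other 4 had 6.49 to 12.1 and 13 to 24.0 FPKM. So were the summed granulosa markers, 892 FPKM against 426 to 749 FPKM, and of the 6 tested ones ZD12 was highest for 4 and lowest for 1. Its summed endothelial markers of 244 FPKM were the lowest of the 5, where the other 4 had 258 to 371 FPKM, and 3 of the 5 endothelial markers were lowest there. Of the 6 luteal markers, ZD12 was lowest of the 5 for 1 and highest for 1, while their sum was lowest there (9167 against 9605 to 12191 FPKM). The summed fibroblast markers (3768 against 4059 to 9586 FPKM) and red blood cell markers (53.8 against 55.8 to 320 FPKM) were also lowest in ZD12. Of the single genes, 1 of 6 fibroblast markers and 2 of 2 tested red blood cell markers were lowest there. The part of these markers in the levels of the 10 genes was not tested.

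ZD8 divided the genes. It was the lowest ovary for FOS, JUNB, NR4A1 and DUSP1 and the highest for FOSB, JUN, EGR1, NR4A2 and ATF3, with only IER2 between. Over the 9 tested genes it was highest for 4 and lowest for 4 (44.4% each), and over all tested genes highest for 44.6% and lowest for 26.3%. The ratio of FOS to EGR1 in FPKM was 2.24, 1.52 and 1.42 in ZD2, ZD3 and ZD12 and 1.94 and 2.03 in ZD5 and ZD7, but 0.105 in ZD8. These 5 ratios stayed within a narrow band although FOS itself differed 13.2 times among the same ovaries. The ratio of JUN to JUNB was 0.473, 0.792 and 1.26 in SLS and 0.349 and 0.450 in ZD5 and ZD7, and 11.3 in ZD8. ZD12 and ZD8 were therefore both low in FOS, DUSP1 and JUNB, while EGR1 was lowest of all in ZD12 and highest of all in ZD8. The luteal markers given above moved with ZD8, and so did the summed theca markers (447 FPKM against 13 to 85.7 in the others). Summed endothelial markers were lowest in ZD8 (115 against 244 to 371 FPKM), with 4 of 5 lowest there. Summed granulosa markers were lowest too (162 against 426 to 892 FPKM), although 3 of these 7 were highest there and 2 lowest. All 4 T cell markers were highest in ZD8. The part of these markers in this division was not tested.

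**Figure D4:**
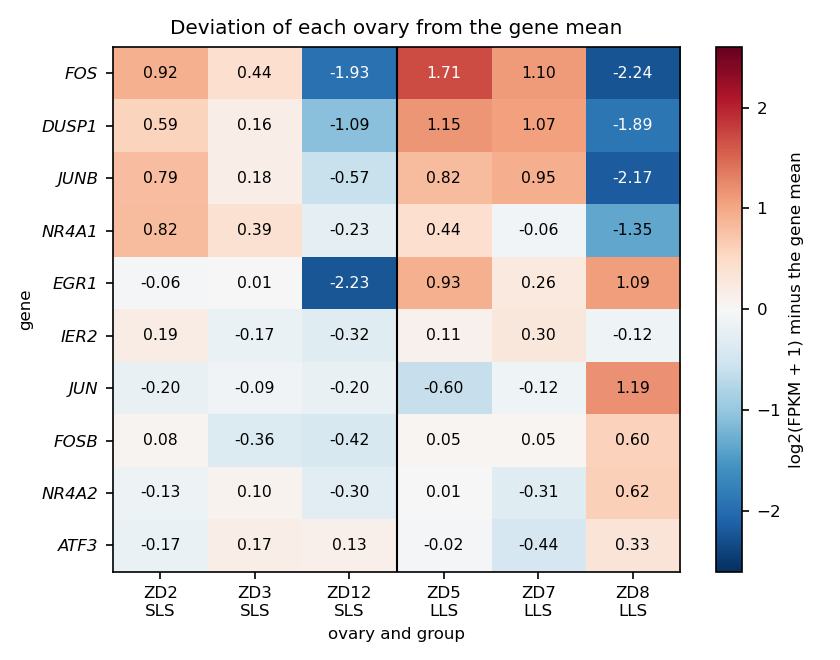
Deviation of log2(FPKM + 1) in each ovary from the mean of the gene over the 6 ovaries, for the 10 genes, with SLS left and LLS right of the line. FOS, DUSP1, JUNB and NR4A1 are below their means in ZD12 and ZD8, while EGR1 is at -2.23 in ZD12 and at 1.09 in ZD8, and JUN is at 1.19 in ZD8.

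The close relatives of the 10 genes were looked up in the same table. FOSL2 and JUND, AP-1 subunits that are less dependent on acute signals, were abundant. FOSL2 was at 220, 195 and 188 FPKM in ZD2, ZD3 and ZD12 and at 162, 194 and 59.6 FPKM in ZD5, ZD7 and ZD8, lowest in ZD8 as FOS was. JUND was at 57.1, 44.0 and 59.7 FPKM in SLS and at 28.1, 39.9 and 102 FPKM in LLS, highest in ZD8 as JUN was. FOSL1 ranged from 2.86 to 7.21 FPKM in SLS and was at 8.89 and 5.87 FPKM in ZD5 and ZD7 and at 0.0723 FPKM in ZD8. NR4A3, the third NR4A receptor, was at 3.66, 5.52 and 0.785 FPKM in SLS and at 21.2, 5.72 and 0.472 FPKM in LLS. ZD5 stood highest and ZD12 and ZD8 lowest, as for FOS. EGR2 (0.211 to 1.53 FPKM) and EGR3 (0.215 to 1.25 FPKM) were scarce in all 6 ovaries, and the LLS ovaries were above the SLS ovaries without overlap for EGR3, which did not reach the filter. Over the tested genes, to which EGR3 does not belong, 1.95% were higher in LLS without overlap. None of the paralogs tested passed the thresholds between groups by limma, and the largest of their log2 fold changes in size were -0.70 for FOSL2 (standard error 0.48) and 0.67 for NR4A3 (standard error 0.92). Without ZD8 FOSL2 shrank to -0.18 (SE 0.26), while NR4A3 was at 1.69 (unadjusted p = 0.017, adjusted p = 0.560 by limma) and JUND at -0.65 (unadjusted p = 0.034, adjusted p = 0.761). NR4A3 was at -0.27 without ZD5 and 0.13 without ZD12, and JUND at 0.26 without ZD5 and 0.018 without ZD7.

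The wider early response was counted from lists of named genes. Of 11 tested AP-1, EGR and NR4A genes beyond the 10, 0 were called and 0 had an unadjusted p under 0.05 by limma, with 3 above and 8 below 0. Without ZD8, 2 of the 11 had an unadjusted p under 0.05, NR4A3 and JUND as given above. The share over all tested genes in that fit, 5.88%, is also the one to set beside the counts without ZD8 in the lists that follow. ATF4, a stress-response activator, was lower in LLS without overlap, at 123, 90.2 and 90.6 FPKM in SLS and 63.3, 76.7 and 73.7 FPKM in LLS (log2 fold change -0.49, SE 0.29, adjusted p = 0.999 by limma), and without ZD8 the fold change was -0.52. Over all tested genes, 3.17% were lower in LLS without overlap, beside 1 of the 11 here. NAB2, a corepressor of EGR1, was at 11 to 24.5 FPKM in SLS and 9.24 to 17.8 FPKM in LLS. Of 33 other immediate early genes tested, 0 were called and 0 had an unadjusted p under 0.05, with 18 above and 15 below 0, and without ZD8 1 of the 33 did. This was ZFP36, which also had the smallest p with all ovaries, whose protein speeds the decay of AU-rich messages, with 23.4, 19.2 and 9.0 FPKM in SLS and 54.7, 28.5 and 17.6 FPKM in LLS (log2 fold change 0.88, standard error 0.48, adjusted p = 0.999 by limma). Without ZD8 its log2 fold change was 1.25, with an unadjusted p of 0.012 and an adjusted p of 0.479 by limma, but it was 0.46 without ZD5 and 0.49 without ZD12. SIK1, a kinase that restrains CREB signalling, was at 47.7, 35.6 and 23.2 FPKM in SLS and 27.6, 29.1 and 4.87 FPKM in LLS (log2 fold change -1.03, standard error 0.62), and without ZD8 the fold change was -0.26 (SE 0.31). IER3 (10.2 to 12.3 FPKM in SLS, 12.5 to 18.1 FPKM in LLS) and TNFAIP3 (1.83 to 2.43 FPKM in SLS, 2.5 to 3.16 FPKM in LLS) were the 2 of 33 higher in LLS without overlap, beside 1.95% of all tested genes, and were named after their values were seen. The groups overlapped for BTG2, an antiproliferative gene (14.4 to 27.5 FPKM in SLS and 22.5 to 35.1 FPKM in LLS). They also overlapped for MCL1, a survival gene of the BCL2 family, and for the antiproliferative BTG1, whose means over 6 ovaries (95.4 and 95.3 FPKM) were the highest of this list. MCL1 was lowest in ZD8 (48.1 FPKM) and BTG1 highest there (171 FPKM).

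Of 9 other DUSP phosphatases tested, 0 were called, and 0 had an unadjusted p under 0.05 by limma. Without ZD8, 1 of the 9 did, DUSP2 at 0.90 (SE 0.35, unadjusted p = 0.028, adjusted p = 0.693 by limma), against 0.46 with all ovaries and 0.19 without ZD5. DUSP4, DUSP5 and DUSP6 were lowest in ZD8, at 11.7, 0.978 and 6.59 FPKM, against 36.4 to 54.9, 3.93 to 11.8 and 12.5 to 26.0 FPKM in the other 5 ovaries. ZD12 was the lowest of those 5 for all 3, as for DUSP1. Over the 9 tested, ZD12 was lowest of the 5 for 4 and highest for 3 (DUSP3, DUSP8 and DUSP14). DUSP3 was lower in LLS without overlap (12 to 13.8 FPKM in SLS, 9.78 to 11.9 FPKM in LLS), 1 of 9 beside the 3.17% of all tested genes, and it too was named after its values were seen. DUSP8 was scarce, at 0.574 to 1.97 FPKM.

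Kinases and factors that act upstream were measured too. Over 24 of them the median range of log2(FPKM + 1) in the 5 ovaries other than ZD8 was 0.56, against 1.05 for the 9 tested members and 0.72 for all tested genes, a difference that was not tested. The same median was 0.99 for the 11 AP-1, EGR and NR4A genes beyond the 10. It was 0.69 for the 33 other immediate early genes and 0.58 for the 9 other DUSP phosphatases, both below that of all tested genes. RPS6KA3, a kinase downstream of ERK, had a range of 1.80, larger than that of JUNB, with 22.3, 65.5 and 34.1 FPKM in SLS and 80.1, 48.9 and 9.68 FPKM in LLS, and was named after its values were seen. By limma, 0 of the 24 were called and 0 had an unadjusted p under 0.05, with 12 above and 12 below 0, and without ZD8 1 of the 24 had an unadjusted p under 0.05, MAPKAPK2. MAPK14, the p38 kinase, was higher in LLS without overlap, at 33.8 to 36.1 FPKM in SLS and 36.2 to 46.6 FPKM in LLS, where the margin was under 1 FPKM, 1 of 24 beside the 1.95% of all tested genes (log2 fold change 0.27, standard error 0.25, adjusted p = 0.999 by limma, and 0.38 without ZD8). MAPKAPK2, a kinase that p38 activates, was at 50.2 and 57.5 FPKM in ZD5 and ZD7, above the SLS range of 25.6 to 34.5 FPKM, and at 18.7 FPKM in ZD8. Its log2 fold change was 0.40 with all ovaries and 0.89 without ZD8 (SE 0.25, unadjusted p = 0.0048, adjusted p = 0.319 by limma), and 0.11 without ZD7. MAP2K1, which phosphorylates the ERK kinases, was at 14.8 to 16.9 FPKM in SLS and 11.3 to 14.8 FPKM in LLS. MAPK3 and MAP2K2, ERK1 and its activator, had the highest means of this list, 93.0 and 45.1 FPKM, and their groups overlapped.

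Heat shock and hypoxia genes, which also answer acute stress, were measured beside them. Of 10 heat shock genes tested, 0 were called and 1 had an unadjusted p under 0.05 by limma. This was HSPE1, a mitochondrial co-chaperonin, with 117, 130 and 164 FPKM in SLS and 68.3, 66.5 and 52.9 FPKM in LLS (log2 fold change -1.11, standard error 0.30, unadjusted p = 0.0052 and adjusted p = 0.999 by limma). It was again the 1 of 10 without ZD8, at -0.999 (SE 0.26, unadjusted p = 0.0031, adjusted p = 0.269 by limma). Its partner HSPD1 was at 93.3 to 175 FPKM in SLS and 52.6 to 103 FPKM in LLS, and BAG3, a co-chaperone, at 15.6 to 26.2 FPKM in SLS and 14.1 to 20.1 FPKM in LLS. HSPB1 and HSPA8 had the highest means, 691 and 541 FPKM, and were lowest in ZD8. Of 12 hypoxia response genes tested, 0 were called and 0 had an unadjusted p under 0.05. Without ZD8 1 of the 12 did, the angiogenic factor VEGFA at 0.60 (SE 0.24, unadjusted p = 0.031, adjusted p = 0.726 by limma), against 0.020 with all ovaries and -0.30 without ZD5. The vasoactive peptide gene ADM was lower in LLS without overlap (10.4 to 11.8 FPKM in SLS and 6.56 to 9.79 FPKM in LLS), with a log2 fold change of -0.36, and -0.41 without ZD8. It was the 1 of 12 to do so, beside the 3.17% of all tested genes. LDHA was at 23.3 FPKM in ZD8 and 61.7 to 78.1 FPKM in the other 5, while NDRG1 (62.5 against 23.1 to 38.1 FPKM) and KDM3A (16.9 against 5.67 to 8.22 FPKM) were highest in ZD8.

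Genes with the most alike pattern were found by the mean absolute difference between profiles of log2(FPKM + 1), each centred on its mean over the 6 ovaries. Nearest to the mean profile of the 10 genes were LOC106505804 (0.07), PAK1 (0.10), LOC100516957 (0.10), LOC110255180 (0.12), PIP5K1A (0.12), SPRY1 (0.12), CMAH (0.14) and SLA-8 (0.14). SPRY1, an inhibitor of receptor tyrosine kinase signalling, was at 12.3, 14.2 and 6.44 FPKM in SLS and 15.1, 15.5 and 7.71 FPKM in LLS. Nearest to FOS alone was the kinase HUNK, at a mean difference of 0.17, with 32.3, 20.8 and 4.14 FPKM in SLS and 85.5, 44.6 and 3.31 FPKM in LLS. The next were SNTB1 (0.37) and the channel gene AQP9 (0.42). For EGR1 no gene came as near, and the closest were CYSLTR2 (0.51), LOC397451 (0.53) and IL31RA (0.53). NR4A1 was nearest to CTHRC1 (0.16), the kinase SGK1 (0.17) and ATPIF1 (0.17). Among the 10 genes themselves, the nearest pairs were NR4A2 and ATF3 (0.16), FOSB and NR4A2 (0.20) and FOSB and IER2 (0.24), all of small range on this scale. JUNB and DUSP1 came next (0.25), and FOS and DUSP1 differed by 0.40. These distances rest on 6 ovaries, share the step at ZD8, and carry no test.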

How the data were processed

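The authors trimmed reads with NGSQCToolkit, mapped them to Sscrofa11.1 with HISAT2 and deposited FPKM values per gene; the program that counted reads on genes is not given in the sources used here. All 6 columns of the gene table were used, and the miRNA table was not used here. Whole reads were recovered by multiplying FPKM by the longest annotated transcript (the gene span where no exon is annotated) and by 1 total per library, for 23485 of 23564 genes above 0 FPKM (99.7%, within 0.001 of a whole read).

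Genes with at least 1 FPKM in at least 3 of the 6 ovaries (12260) were compared, LLS minus SLS, by limma 3.58.1 in R 4.3.3 with trended variance on log2(FPKM + 1), which understates changes of low genes. A gene was called where its log2 fold change exceeded 1 in size and its Benjamini-Hochberg adjusted p over all tested genes was under 0.05. limma stands in for the study's own tool, which needs counts. Single genes were also compared by exact two-sided permutation tests. The main limma fit was also run on simulated reads, and its outcome there is not given here. Each ovary is 1 sow; the p-values measure the spread between sows. Sequences are from the RefSeq copy of Sscrofa11.1.

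The members and gene lists were chosen with earlier results of these data known. The genes named are the 10 members, their paralogs JUND, FOSL1, FOSL2, EGR2, EGR3 and NR4A3, the 3 genes with the smallest p and the 2 with the highest mean of each list, and the nearest profiles (8 to the mean of the members, 3 each to FOS, EGR1 and NR4A1). Cell type markers come from the marker lists, of which the luteal genes and CYP19A1 are named as defining markers. IER3, TNFAIP3, DUSP2, DUSP3, DUSP14, RPS6KA3, VEGFA, KRT8, KRT19 and EPCAM were named after their values were seen.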

Additional observations from a re-analysis of the deposited data

How the results depend on the processing

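The alternatives were pseudocounts of 0.1 and 5, no filter and a filter of 5 FPKM, TPM rescaling, quantile normalization, median centring, no variance trend, array weights, limma voom on recovered reads, and leaving out each ovary in turn. No member was called in any of these 16 fits, nor was any gene of the other early response, stress and upstream lists. Over all tested genes 0 were called, and 216 had an unadjusted p under 0.05. Array weights gave 13 calls, 6 of them higher in LLS and 7 lower. Calling on the unadjusted p and the fold change alone gave 99, of which 24 were higher, and calling on the adjusted p alone gave 0. With each ovary left out the count was 0 to 21, and 21 was the fit without ZD8. The direction of EGR1, IER2 and NR4A1 held in all 16 fits. Array weights, which gave ZD8 a weight of 0.135, turned JUN to -0.13 and JUNB to 0.79. They raised FOS to 1.90 (adjusted p = 0.345 by limma) and DUSP1 to 1.35 (adjusted p = 0.306 by limma). With each ovary left out, the log2 fold change ran from -0.49 to 1.60 for FOS, -0.30 to 1.22 for DUSP1, -0.81 to 0.75 for JUNB, -0.20 to 0.70 for JUN, -0.043 to 0.43 for NR4A2 and -0.28 to 0.11 for ATF3. FOS and DUSP1 turned without ZD12, ZD5 or ZD7, JUNB without ZD2 or ZD8, JUN and NR4A2 without ZD8, and ATF3 without ZD7. The median SD of log2(FPKM + 1) within groups over the 9 tested members was 0.75, and 0.48 to 0.87 with each ovary left out, lowest without ZD8. The cause of these shifts was not tested. No paired analysis was possible because the SLS and LLS ovaries come from different sows and share no numbers in their labels. Values of FOSB and NR4A2 rest on the fewest reads.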
